A study of Mus musculus with 3 samples.

Results

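GABA-A receptors are chloride channels opened by the inhibitory transmitter GABA. Each receptor is a ring of subunits that usually combines alpha and beta subunits, which form the GABA binding site, with a gamma or a delta subunit. The alpha subunit decides much of where a receptor sits on the neuron and how it responds to benzodiazepines, while receptors with a delta subunit lie mostly outside synapses and respond to low levels of GABA and to neurosteroids. The mRNA levels of 7 subunit genes, Gabra2, Gabra3, Gabra4, Gabra5, Gabrb1, Gabrb2 and Gabrd, are described here in cells sorted from the mouse hippocampus. They were chosen by name from the 52636 genes of the count table, as 4 alpha genes, 2 beta genes and 1 delta gene, and other subunit genes were taken up only as listed further on.

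The series has 1 condition and no control or unsorted tissue, so the values are levels and not enrichments. The 3 biological replicates each held hippocampal cells from 2 to 4 male C57BL/6J mice that were 28 to 32 days old. All mice were Camk2a-Cre +/-, Ai14 +/-, so a Camk2a promoter drives Cre, and Cre turns on the tdTomato reporter. Tissue was digested with papain and live tdTomato-positive cells were sorted, and such a digest usually shears off most of the dendrites and axons. Poly(A) RNA was sequenced to 48159841, 25686630 and 15833075 assigned counts in replicates 1, 2 and 3. The labels call the cells CA1 pyramidal neurons. A gene is called detected here where its CPM, the count scaled to the library total, was 1 or more in all 3 replicates. Levels are given as TPM, which also divides by gene length and is taken over nuclear protein-coding genes. All 8 CA1 marker genes were detected, with a summed level of 1772 to 1954 TPM, and all 3 excitatory neuron markers, with 3311 to 3444 TPM. All 6 markers of dentate granule neurons were detected too, with a summed level of 949 to 1073 TPM, of which C1ql2 alone had 601 to 658 TPM. All 8 oligodendrocyte markers were also detected, with 812 to 906 TPM. Of all nuclear protein-coding genes, 57.2% were detected. The lists differ in size, so their sums do not give the shares of cell types. Sums were 134 to 143 TPM for 3 CA3 markers, 163 to 327 TPM for 7 astrocyte markers, 57.6 to 102 TPM for 8 interneuron markers, 37.5 to 53.9 TPM for 5 microglia markers, 9.13 to 76.1 TPM for 5 endothelial markers and 1.55 to 2.51 TPM for 2 markers of oligodendrocyte precursors. The part of these other cells in the levels below was not tested. In such pooled cells, fewer cells of a type and less RNA per cell cannot be told apart.

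The bases before the start of 5 of the 7 genes are shown because these genes have the 4 highest levels or the lowest level of the 7. For Gabrb1, the start of the longest transcript was taken. The sequences are from RefSeq on GRCm38.p6 and run 5′ to 3′ on the strand of the gene, up to the base before the RefSeq start except for Gabra4. For Gabra4, the stretch ends before an untranslated exon of Gabrb1 that lies next to the start. Capitals mark each CG dinucleotide and, in Gabrb1, also the motif TGCGCATGCGCA, the palindrome bound by the transcription factor NRF1.
Gabra5 (chr7:57510060-57510309, minus strand): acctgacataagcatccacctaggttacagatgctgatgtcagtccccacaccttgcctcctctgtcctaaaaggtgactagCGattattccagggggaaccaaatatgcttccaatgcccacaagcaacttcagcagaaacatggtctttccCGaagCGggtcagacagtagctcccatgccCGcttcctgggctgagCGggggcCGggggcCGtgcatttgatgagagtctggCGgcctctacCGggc
Gabra2 (chr5:71095850-71096099, minus strand): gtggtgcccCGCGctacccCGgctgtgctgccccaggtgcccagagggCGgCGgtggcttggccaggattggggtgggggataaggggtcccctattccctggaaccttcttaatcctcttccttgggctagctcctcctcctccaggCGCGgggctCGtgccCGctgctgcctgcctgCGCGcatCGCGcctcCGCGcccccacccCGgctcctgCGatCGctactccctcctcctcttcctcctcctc
Gabra4 (chr5:71658364-71658558, minus strand): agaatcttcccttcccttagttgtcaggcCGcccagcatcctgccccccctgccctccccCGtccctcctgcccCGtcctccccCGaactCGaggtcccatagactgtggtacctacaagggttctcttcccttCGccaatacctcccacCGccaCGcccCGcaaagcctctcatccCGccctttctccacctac
Gabrb1 (chr5:71699682-71699931, plus strand): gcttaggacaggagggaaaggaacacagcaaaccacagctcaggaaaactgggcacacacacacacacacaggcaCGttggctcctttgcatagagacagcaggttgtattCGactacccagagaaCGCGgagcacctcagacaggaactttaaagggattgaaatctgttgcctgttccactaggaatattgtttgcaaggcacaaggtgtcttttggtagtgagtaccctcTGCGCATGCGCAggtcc
Gabra3 (chrX:72656920-72657169, minus strand): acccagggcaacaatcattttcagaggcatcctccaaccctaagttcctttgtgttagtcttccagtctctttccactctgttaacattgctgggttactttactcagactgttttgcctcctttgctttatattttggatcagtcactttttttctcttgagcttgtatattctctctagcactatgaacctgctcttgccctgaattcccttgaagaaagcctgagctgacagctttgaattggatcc

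The start regions differed in base composition. In the 250 bases before the start, Gabra2 had 18 CG dinucleotides, Gabra4 had 12, Gabra5 had 9 and Gabrb1 had 6, while Gabra3 had 0. RefSeq also lists a start of Gabrb1 farther upstream, at 71657921, with 18 CG dinucleotides, and a further start of Gabra3 with 0. This other start of Gabrb1 and the 250 bases before it lie within the span of Gabra4. Over the 32851 RefSeq promoters of the same length, the median was 6 CG dinucleotides, and 7.87% had 0. The motif TGCGCATGCGCA was found once in Gabrb1, starting 17 bases before the RefSeq start at 71699932 and not before the other start, and 0.140% of all promoters held it. The GC box GGGCGG, searched on both strands, occurred once in the window of Gabra2 and at 2 places in that of Gabra4, and 32.7% of all promoters held at least 1. TATAAA, on both strands, was found once in Gabra3 and in no other gene printed above, and in 12.4% of all promoters. TGACGTCA, the cAMP response element, was in none of the 5 windows and in 1.55% of all promoters. Gabrb2, whose sequence is not printed, has RefSeq starts at 42420440, 42420774 and 42421201, with 8, 8 and 4 CG dinucleotides. The window before 42420440 held 1 TATAAA and 1 GC box, and the other windows of Gabrb2 held neither. No promoter sequence was at hand for Gabrd. For Gabra3 the RefSeq start lay 71 bases from the nearest GENCODE start, and for the other 4 genes printed above it was the same base. A match of letters is a description and not a binding site.

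All 7 genes were detected, as were 30.3% of all genes of the table and 57.2% of nuclear protein-coding genes. All 7 also reached a CPM of 10 in every replicate, as did 41.5% of nuclear protein-coding genes. Raw counts ran from 309 to 14561. The 7 genes summed to 1035, 1144 and 1181 TPM in replicates 1, 2 and 3, a mean of 1120 ± 75.6 TPM (SD, n = 3). Their median level of 137 TPM compares with 37.7 TPM over the 12465 detected nuclear protein-coding genes.

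**Figure D1:**
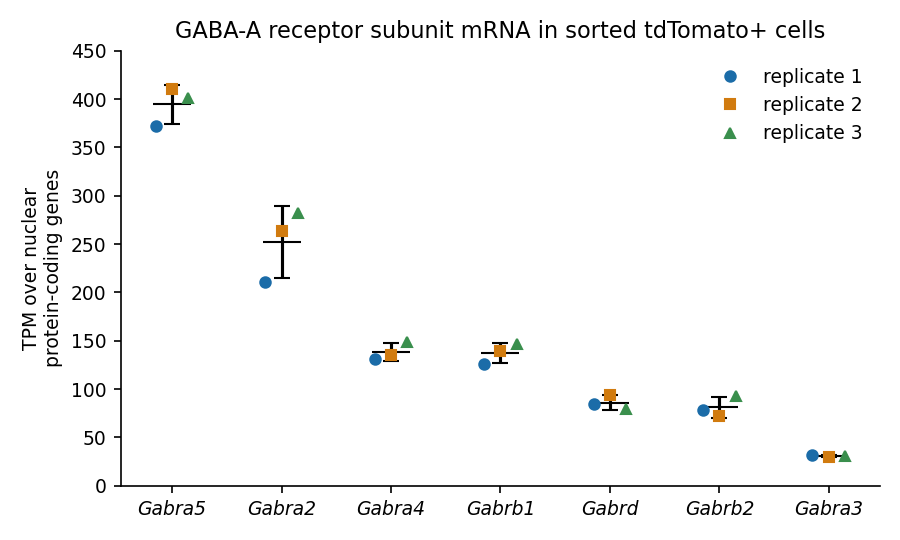
TPM over nuclear protein-coding genes for each subunit gene. Points are the 3 replicates, and the bar and whiskers are the mean and SD. Gabra5 lies highest at 372 to 411 TPM and Gabra3 lowest at 29.3 to 31.9 TPM.

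Gabra5 had the highest length-scaled level of the 7 genes. It encodes the alpha5 subunit, which is abundant in the hippocampus and carries much of the tonic inhibition of pyramidal neurons outside synapses. Gabra5 lies on the minus strand of chromosome 7 of GRCm38 from 57407672 to 57510059, with 20.5 kb between it and Gabrg3. Its level was 372, 411 and 401 TPM in replicates 1, 2 and 3, from 9222, 5391 and 3074 counts. The mean was 395 ± 20.1 TPM (SD, n = 3), higher than 97.3% of the detected nuclear protein-coding genes. The lowest replicate of Gabra5 lay above the highest replicate of every other gene of the 7. Of its 2974 merged exon bases, 148 (4.98%) are shared with Gm9962 on the opposite strand. The strand setting of the counting is not given in the sources used here, so reads of the shared bases cannot be assigned to either gene.

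Gabra2 came next. The alpha2 subunit is found at inhibitory synapses on the soma and the axon initial segment of pyramidal neurons and takes part in the anxiolytic action of benzodiazepines. The gene lies on the minus strand of chromosome 5 from 70957597 to 71095849. It had 211, 264 and 282 TPM in replicates 1, 2 and 3, from 13419, 8886 and 5550 counts. The mean was 252 ± 36.9 TPM (SD, n = 3), with replicate 1 lower than the other two. Within each library Gabra5 exceeded Gabra2, by 0.82, 0.64 and 0.51 on the log2 scale of TPM, a mean of 0.66 ± 0.16 (SD, n = 3). This order held with merged exons or the longest annotated transcript as the length and was reversed with the coding length. By CPM, which has no length term, Gabra2 was the higher of the pair, with 325 ± 40.2 against 199 ± 9.94 CPM (SD, n = 3).

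Gabra4 followed. The alpha4 subunit often joins with the delta subunit outside synapses and makes receptors that do not respond to classical benzodiazepines. The gene lies on the minus strand of chromosome 5 from 71569749 to 71658308, 474 kb from Gabra2. It had 131, 135 and 149 TPM in replicates 1, 2 and 3, a mean of 138 ± 9.36 TPM (SD, n = 3). Its normalized count, which divides the count by the size factor of the library, varied least of the 7 genes, with a coefficient of variation of 2.93%. Counting error alone gave 1.71%.

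Gabra3 had the lowest level of the 7 genes. The alpha3 subunit is best known from the cortex, the reticular thalamus and monoaminergic nuclei. The gene lies on the minus strand of the X chromosome from 72432681 to 72656848, between Gabre, at a distance of 158 kb, and Gabrq, at 168 kb. It had 31.9, 29.3 and 30.6 TPM from 1044, 508 and 309 counts in replicates 1, 2 and 3, a mean of 30.6 ± 1.30 TPM (SD, n = 3). This level was above that of 43.5% of the detected nuclear protein-coding genes. Gabra5 exceeded it by 3.69 ± 0.13 on the log2 scale of TPM (SD, n = 3), which is 12.9-fold. The highest replicate of Gabra3 lay below the lowest replicate of each of the other 6 genes, and Gabra3 was also last under every length that was tried.

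Among the 4 alpha genes, Gabra5 made up 49.9%, 49.0% and 46.5% of their summed TPM in replicates 1, 2 and 3. Gabra2 made up 28.3%, 31.4% and 32.7%. Gabra4 held 16.9% ± 0.763 and Gabra3 held 3.78% ± 0.440 (SD, n = 3). The order of these shares was the same in all 3 replicates. With CPM the share of Gabra2 was 47.3% and that of Gabra5 was 29.0%, and with the coding length they were 50.2% and 30.0%, so the leading alpha gene depends on the length used.

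**Figure D2:**
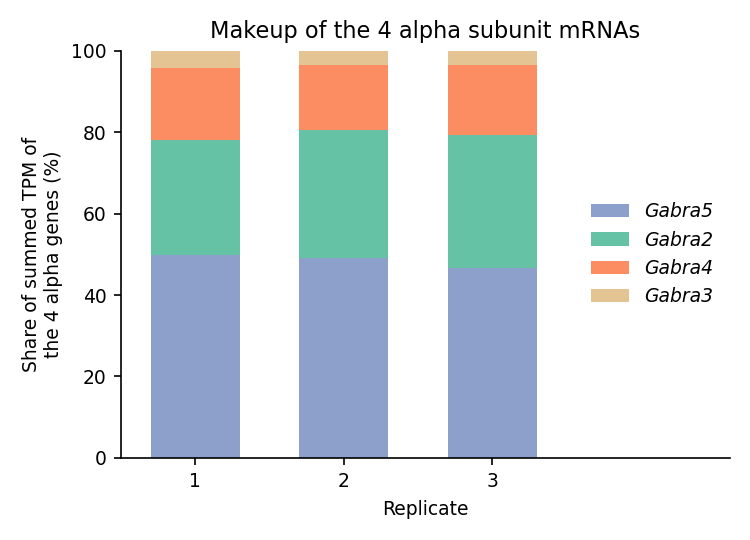
Share in percent of each of the 4 alpha genes in their summed TPM, as 1 stacked bar per replicate. Gabra5 takes 46.5% to 49.9% and Gabra3 takes 3.50% to 4.28%.

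The 2 beta genes were both expressed. Beta subunits are needed to assemble a receptor and carry the sites that bring it to the membrane and to synapses. Gabrb1 lies on the plus strand of chromosome 5 from 71658113 to 72149037. It had 126, 139 and 147 TPM in replicates 1, 2 and 3, from 14561, 8493 and 5223 counts, with a mean of 137 ± 10.2 TPM (SD, n = 3). Gabrb2, on the plus strand of chromosome 11 from 42419757 to 42629028, had 78.5, 72.1 and 93.0 TPM, with a mean of 81.2 ± 10.7 TPM (SD, n = 3). The lowest replicate of Gabrb1 lay above the highest of Gabrb2. Within libraries, Gabrb1 exceeded Gabrb2 by 0.76 ± 0.16 on the log2 scale of TPM (SD, n = 3), and it made up 61.2% to 65.9% of the summed TPM of both. With the longest annotated transcript the difference was 0.10 ± 0.16, within the spread, and with the coding length it was 2.00 ± 0.16 (SD, n = 3). With merged exons, the summed TPM of the 4 alpha genes was 3.74 ± 0.204 times that of the 2 beta genes (SD, n = 3). The SD does not cover the choice of length, under which Gabrb1 alone moved from 107 to 373 TPM. Both sums hold only the genes chosen here and not all alpha and beta genes of the family.

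Gabrd, the gene of the delta subunit, was at a level like that of Gabrb2 by TPM with merged exons. With the longest annotated transcript it was lower than Gabrb2, at 70.4 against 99.9 TPM. It was also lower with the coding length, at 51.3 against 93.9 TPM, and by CPM, at 41.8 against 87.1. In the hippocampus the delta subunit is best known from dentate granule neurons. The gene lies on the minus strand of chromosome 4 from 155384980 to 155398112. It had 84.7, 94.1 and 78.9 TPM from 2028, 1194 and 584 counts in replicates 1, 2 and 3, a mean of 85.9 ± 7.71 TPM (SD, n = 3). Replicate 2 was highest and replicate 3 lowest. The ratio of Gabrd to Gabra4, its usual partner, was 0.648, 0.698 and 0.531 in these replicates. Its mean was 0.449 with the longest annotated transcript, 0.381 with the coding length and 0.296 with CPM. Dentate granule markers were in the same libraries, with a summed level of 1073, 949 and 999 TPM over 6 genes, including 151 ± 19.1 TPM for Prox1 and 622 ± 31.3 TPM for C1ql2 (SD, n = 3). The lowest replicate differed between dentate granule markers. It was replicate 2 for Prox1, C1ql2, Dsp and Plk5, replicate 3 for Pdzd2 and replicate 1 for Tdo2. For some markers the lowest replicate was close to the next, as for C1ql2 with 601 against 606 TPM. The part of dentate granule neurons in the level of Gabrd or Gabra4 was not tested.

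The order of the 7 genes by TPM was Gabra5, Gabra2, Gabra4, Gabrb1, Gabrd, Gabrb2 and Gabra3. Each gene was compared with the next in the order by the ratio within each library, and 4 of the 6 neighbouring pairs had the same sign in all 3 replicates. Gabra2 exceeded Gabra4 by 0.86 ± 0.15, Gabrb1 exceeded Gabrd by 0.68 ± 0.19 and Gabrb2 exceeded Gabra3 by 1.40 ± 0.18 on the log2 scale of TPM (SD, n = 3). The excess of Gabrb1 over Gabrd was 2.95 with CPM and 2.87 with the coding length. Gabra4 and Gabrb1 did not differ beyond their spread, at 0.01 ± 0.05, and neither did Gabrd and Gabrb2, at 0.09 ± 0.31. Both pairs changed order in 1 replicate. The exact sign-flip permutation test, two-sided, gave p = 0.25 for the 4 pairs with a constant sign and p = 0.75 for the other two, and this test cannot give a p under 0.25 with 3 replicates.

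Gabra4 and Gabrb1 lie head to head on opposite strands. Their spans in the table overlap by 196 bases, and their exons share 46 bases, which are 0.756% of the merged exons of Gabra4 and 0.332% of those of Gabrb1. The shared bases belong to untranslated upstream exons of Gabrb1. The longest transcript of Gabrb1 starts farther downstream, at the position for which its sequence is printed above. Across replicates, their log2 ratio had an SD of 0.05, the smallest of the 21 pairs of the 7 genes, and counting error alone gave 0.03. The SD over all pairs had a median of 0.16 and reached 0.31 for Gabrd and Gabrb2. This pair was singled out after its values were seen, and whether the genes move together was not tested.

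The lengths used for scaling differed widely and set part of the order. Gabrb1 has 13838 merged exon bases, of which its last exon takes 12573, against 2974 for Gabra5 and 2875 for Gabrd. Gabrb1 therefore had the second highest CPM, at 321 ± 16.1 (SD, n = 3), while it was at position 4 by TPM. With the longest annotated transcript as the length, the means were 339 TPM for Gabra5, 254 TPM for Gabra2, 158 TPM for Gabra4, 107 TPM for Gabrb1, 99.9 TPM for Gabrb2, 70.4 TPM for Gabrd and 25.3 TPM for Gabra3. With the coding length, Gabra2 led with 398 TPM, followed by Gabrb1 with 373 TPM and Gabra5 with 236 TPM. Which 3′ ends the cells use was not measured, and no single length can be taken as the right one.

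**Figure D3:**
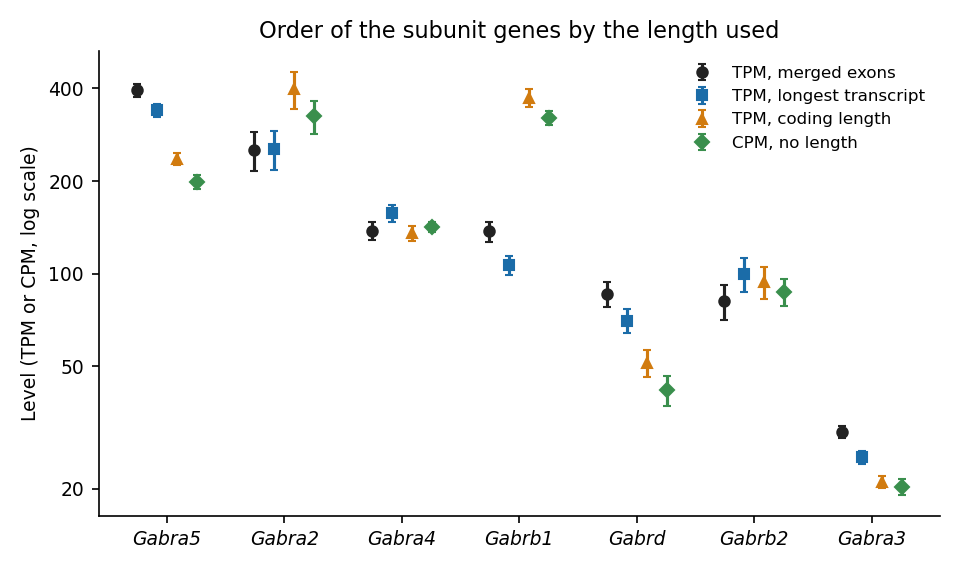
Level of each subunit gene on a log axis, as TPM with 3 choices of gene length and as CPM without length. Symbols show the mean over 3 replicates and whiskers the SD. Gabrb1 moves from 107 to 373 TPM with the length used, and Gabra3 stays lowest.

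The genes differed in how much they varied between replicates. The coefficient of variation of the normalized count ranged from 2.93% for Gabra4 to 11.7% for Gabra2, with a median of 6.62%. The median was 8.75% over the 12465 detected nuclear protein-coding genes, and Gabra2, Gabrd and Gabrb2 lay above it. For Gabra2 the normalized count was 7545 in replicate 1 and 9228 and 9371 in replicates 2 and 3, and its spread was 10.2 times that of counting error. Without replicate 1, the median coefficient over the 7 genes was 3.17%, without replicate 2 it was 6.73% and without replicate 3 it was 5.93%. Each of these rests on 2 values per gene. For Gabrd the coefficient was 11.4% and for Gabrb2 it was 10.1%. They moved in opposite ways, with Gabrd highest and Gabrb2 lowest in replicate 2 and the reverse in replicate 3. Gabra5, Gabrb1 and Gabra3 had coefficients of 4.46%, 4.24% and 6.62%. Markers of some other cells varied more over the same libraries. The summed astrocyte markers were at 260, 163 and 327 TPM and the summed endothelial markers at 9.13, 21.4 and 76.1 TPM in replicates 1, 2 and 3, which are coefficients of variation of 33.2% and 100.3% against 6.75% for the summed TPM of the 7 genes. The sums of dentate granule, oligodendrocyte and CA3 markers had 6.19%, 6.08% and 3.39%. Their part in the deviations of the subunit genes was not tested.

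**Figure D4:**
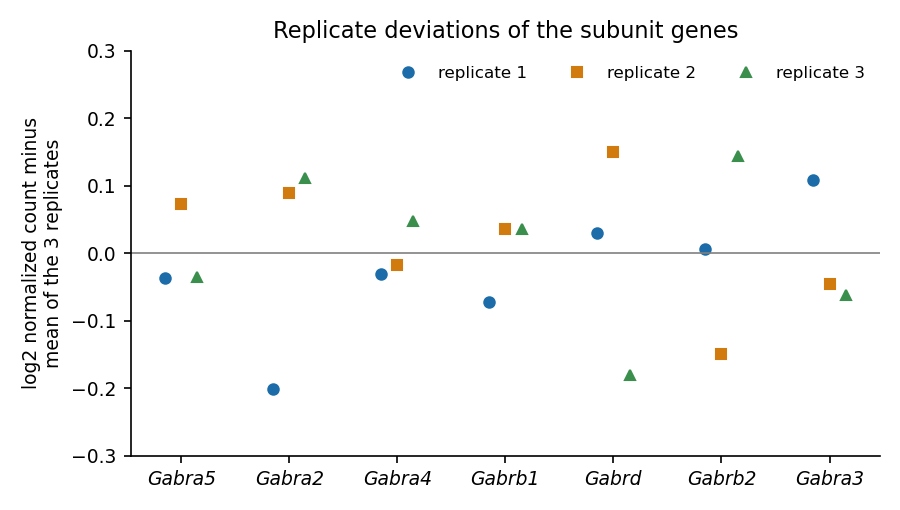
Log2 normalized count of each subunit gene minus its mean over the 3 replicates. Replicate 1 of Gabra2 lies 0.20 below its mean, and Gabrd and Gabrb2 lie on opposite sides of 0 in replicates 2 and 3.

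The 9 further subunit genes listed here were low or had no counts. They are not the rest of the family, and other subunit genes are not reported here. Gabrg3, a gamma subunit gene next to Gabra5, had 9.06, 9.38 and 9.50 TPM, and Gabrg1, which lies 115 kb from Gabra2, had 4.03, 3.34 and 4.78 TPM in replicates 1, 2 and 3. These were the only 2 detected among the 9 further genes, against 57.2% of nuclear protein-coding genes. Gabrq, Gabrr1 and Gabrr2 had 22, 21 and 5 counts in replicate 1, and 5, 1 and 0 in replicate 3. Gabra6, a subunit gene of cerebellar granule cells, had 0 counts in all replicates, as did Gabre, Gabrp and Gabrr3. The limit of 3 counts that a 0 leaves corresponds, for Gabra6, to 0.145 TPM in replicate 1 and 0.468 TPM in replicate 3, for counting error only. The markers of interneurons, which release GABA, were mostly low, and 1 of 8 was detected, against the same 57.2%. This marker was Gad1, at 54.4, 43.0 and 59.1 TPM in replicates 1, 2 and 3. Detection uses CPM, which has no length term. Sst and Npy, with 599 and 566 bases, were not detected but had 12.8 ± 9.96 and 9.73 ± 4.96 TPM (SD, n = 3).

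The genes for receptor partners were all detected. Detection covered all 16 genes for clustering and trafficking, against 57.2% of nuclear protein-coding genes. This list was written with earlier results of these data known. The median level of the 16 genes was 148 ± 12.1 TPM (SD, n = 3). Gphn, which encodes the scaffold gephyrin at inhibitory synapses, had 97.6, 98.1 and 105 TPM. Nlgn2, which encodes an adhesion protein of inhibitory synapses, had 307 ± 19.6 TPM (SD, n = 3). Shisa7 and Lhfpl4, which encode membrane proteins that bind the receptor, had 343 ± 6.35 and 145 ± 11.6 TPM (SD, n = 3). Rdx encodes radixin, which anchors alpha5 receptors outside synapses, and had 74.1 ± 8.76 TPM against 395 TPM for Gabra5. Nsf, a trafficking ATPase, and Gabarapl1, of the GABARAP family, were higher, with 559 ± 32.0 and 730 ± 10.8 TPM, and Zdhhc3, which adds palmitate to gamma subunits, was lowest with 25.6 ± 0.804 TPM (SD, n = 3).

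The chloride transporters that set the direction of the current through the receptor were unequal. Slc12a5, the neuronal chloride exporter, had 517, 508 and 474 TPM, and the importer Slc12a2 had 36.7, 28.4 and 37.3 TPM in replicates 1, 2 and 3. Of 5 genes for neurosteroids and the endozepine precursor, 4 were detected, against 57.2% of nuclear protein-coding genes. Srd5a1, a 5-alpha-reductase of neurosteroid synthesis, had 16.1 ± 2.73 TPM, and Dbi, the endozepine precursor, had 44.7 ± 8.16 TPM (SD, n = 3). Akr1c14, the reductase that follows Srd5a1, had 2, 0 and 5 counts in replicates 1, 2 and 3.

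**Figure D5:**
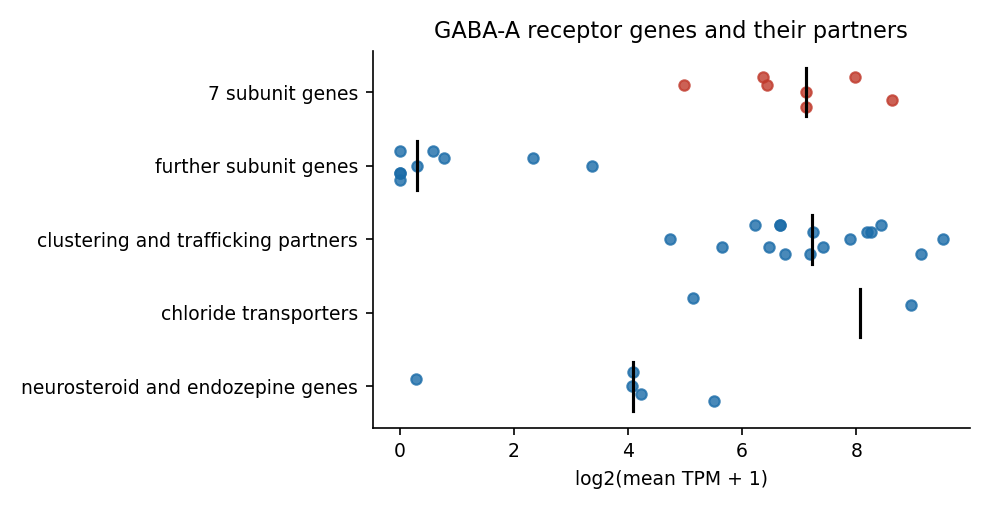
Mean level as log2 of TPM plus 1 for the 7 subunit genes in red and for 4 lists of related genes in blue. Points are genes and black ticks are list medians. The 16 partners have a median of 148 TPM, and 4 of the 9 further subunit genes are at 0.

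Genes with the most similar levels were taken as the nearest by Euclidean distance of log2 of TPM plus 1 over the 3 replicates. The nearest protein-coding gene was Hnrnpdl for Gabra5, with 393 ± 16.6 TPM, and Fndc5 for Gabra2, with 254 ± 35.8 TPM (SD, n = 3). It was Mt1 for Gabrb1, Vps26a for Gabrb2, Hdac7 for Gabrd and Gorasp1 for Gabra3. Distances for these 6 genes were 0.02 to 0.08. This is a likeness of level over 3 libraries of 1 condition.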

How the data were processed

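Poly(A) RNA of sorted tdTomato-positive cells was measured in 3 replicates. The authors deposited raw counts per gene with no normalization, together with the merged exon length of each gene in bp. The submitters' processing notes name STAR, featureCounts, mm10 and GRCm38, and the versions, strand setting and treatment of multimapping reads are not given in the sources used here. All 3 replicates were used, and 0 columns were left out.

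Gene identifiers without their version were matched to GENCODE vM21, also on GRCm38, which named 52403 of 52636 genes. TPM was computed over 21806 nuclear protein-coding genes, because Gm23935, a short noncoding feature, took 32.7% to 48.3% of the TPM over all genes. Counts were normalized by size factors from the median of ratios, which were 1.78, 0.963 and 0.592. TMM factors of edgeR 4.0.16 in R 4.3.3 were an alternative. Totals differed 3.04-fold, and intervals and limits cover counting error only. Log2 values of TPM used no pseudocount for ratios between the 7 genes, and a pseudocount of 1 as an alternative and for distances. Neighbours in the order of levels were compared with an exact sign-flip permutation test. The calculation of size factors and coefficients of variation was tested on simulated data. Scripts ran in Python 3.11.15 with pandas 2.3.3, numpy 2.4.6 and scipy 1.17.1, and plots were drawn with matplotlib 3.10.9.

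The 7 genes and all lists were chosen with earlier results of these data known. Named genes were the 7 genes, lists of further subunits, partners, chloride transporters, neurosteroid genes and cell type markers, and the gene nearest in level to each of the 7. Other subunit genes of the family and the gene nearest to Gabra4 are not reported here. The coding length, and the other lengths for Gabrb1 to Gabrb2 and Gabrd to Gabra4, were added after seeing the data. Alternatives were the unit, the gene length, the pseudocount, the normalization, the filter and leaving out each replicate.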

Additional observations from a re-analysis of the deposited data

How the results depend on the processing

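No paired analysis was possible because the series holds 1 group, so no replicate number pairs samples across groups. The scaling by length changed the order of the genes most. With CPM, the log2 ratio of Gabra5 to Gabra2 was -0.70, that of Gabra4 to Gabrb1 was -1.18 and that of Gabrd to Gabrb2 was -1.06. With the coding length, chosen after seeing the data, these ratios were -0.74, -1.46 and -0.87. With the longest annotated transcript, Gabrd to Gabrb2 was -0.50. When 1 replicate was left out, Gabra4 to Gabrb1 ranged from -0.012 (without replicate 1) to 0.034 and Gabrd to Gabrb2 from -0.065 (without replicate 2) to 0.25. The shares of Gabra2, Gabra3, Gabra4 and Gabra5 in the alpha genes were 47.3%, 2.98%, 20.7% and 29.0% with CPM. With the longest transcript the shares of Gabra3, Gabra4 and Gabra5 were 3.28%, 20.3% and 43.8%. With the coding length those of Gabra2, Gabra3 and Gabra5 were 50.2%, 2.68% and 30.0%. The counts are the same in all of these, and only the divisor differs. The summed level was 349 TPM over all genes, where Gm23935 is part of the total. Of 126 alternatives to 20 results, 82 kept the direction of a ratio or left another value within its spread, 35 shifted a value beyond it and 9 reversed a ratio. Leaving out 1 of 3 replicates cannot move a mean by as much as its SD. For levels, shares and the summed level, these alternatives were thus among the 82 by arithmetic alone. The same held for the 4 neighbouring pairs with a constant sign, both when 1 replicate was left out and with the pseudocount. The looser filter, at least 1 count in any replicate, also had to keep all 7 genes. CPM and TPM over all genes are other scales than the main TPM, so a shift of a level under them includes a change of unit. For the median coefficient of variation the spread was the SD over the 7 genes. The median was 6.62% with all replicates, and 3.17%, 6.73% and 5.93% without replicate 1, 2 and 3. Gabra2 over Gabra4, Gabrb1 over Gabrd, at 0.57 to 2.95, and Gabrb2 over Gabra3 kept their direction under all alternatives tried. Of these alternatives, only CPM, the longest transcript and the coding length could have reversed them. With 3 replicates, the exact sign-flip test could not pass 0.05 for any pair of neighbours.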
